A study of Mus musculus with 6 samples.

Results

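Distal convoluted tubule (DCT) cells were followed here in naive, rejecting, and tolerized mouse kidneys profiled by droplet single-cell RNA sequencing. They were picked one barcode at a time by a rule on transcripts, each counted as a unique molecular identifier (UMI). A barcode was kept if it held at least 500 UMIs and 250 genes and at most 50% mitochondrial UMIs. It was then taken as a DCT cell if it held at least 2 UMIs of Slc12a3 and none of Slc12a1, Aqp2, Ptprc, or Cd3e. Of 49797 barcodes that passed the filters, 2230 met this rule. The naive kidneys came from untransplanted male B6 mice (C57BL/6, wild type, I-Ab) aged 10 to 12 weeks. Rejecting kidneys were BALB/c (I-Ad) grafts from donors of 6 to 7 weeks, placed into B6 males whose own kidneys had both been removed, and taken on day 15. Tolerized kidneys were the same kind of graft from recipients that had also been infused, before and after transplantation, with BALB/c splenocytes treated with ethylenecarbodiimide (ECDI). There were 2 kidneys per group, 1 library each, and 6 kidneys in all. Graft cells can come from the donor kidney or from the B6 recipient, and the rule does not tell them apart. Naive and transplanted kidneys also differed in strain, in age, and in the gene list of their matrices, and these differences cannot be told apart from transplantation. Nnt, a gene partly deleted in C57BL/6J mice, was high in naive kidneys and low in grafts, not the order that the strain labels alone would give.

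The DCT is the short stretch of the nephron after the loop of Henle, and its cells take up sodium and chloride from the urine through NCC, the thiazide-sensitive cotransporter encoded by Slc12a3. NCC is switched on by the WNK kinases and their partner SPAK, and WNK kinases are removed by a ubiquitin ligase built from KLHL3 and CUL3, so that the segment adjusts salt and potassium balance. The same cells take up magnesium through TRPM6, and those at the downstream end, which merge into the connecting tubule, take up calcium through TRPV5, calbindins, and a sodium-calcium exchanger.

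DCT cells numbered 615 and 524 in naive replicates 1 and 2, 325 and 177 in rejecting grafts, and 318 and 271 in the tolerized kidneys. They made up 8.52% and 8.65% of the filtered barcodes in naive kidneys, 2.77% and 2.19% in rejecting grafts, and 3.24% and 3.94% in tolerized grafts. Among barcodes without Ptprc (the pan-leukocyte antigen CD45) and Cd3e (a T cell receptor subunit), the shares were 8.74% and 8.98%, 6.78% and 7.56%, and 6.25% and 5.93%, so naive kidneys were highest under both denominators. Genes that the rule did not use were checked against barcodes without any UMI of the 5 genes of the rule. A UMI of Pvalb (parvalbumin), Calb1 (calbindin-D28k), or Trpm6 was present in 86.8% and 89.3% of DCT cells in naive kidneys, 83.1% and 91.0% in rejecting grafts, and 86.2% and 92.6% in tolerized grafts. In those barcodes the share was 17.4% and 18.9%, 7.92% and 5.85%, and 6.58% and 34.3%, at median depths of 3277 and 3221, 1964 and 2931, and 5954 and 6279 UMIs. Pvalb stood at 847 and 915 raw CPM (UMIs scaled to a common library total) in DCT cells of naive kidneys, 869.8 and 1210 in rejecting grafts, and 854 and 1588 in tolerized grafts, against 2.18 to 15.7 raw CPM in those barcodes. The chosen cells held a median of 18 and 11 UMIs of Slc12a3 in naive kidneys, 6 and 30 in rejecting grafts, and 16 and 44 in tolerized grafts, which describes the selection. The gene lies at chr8:94329201-94366214 in GRCm38.

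Depth and mitochondrial content moved with the kidneys. The median DCT cell held 5644 and 3976 UMIs in naive kidneys, 2234 and 7218 in rejecting grafts, and 6067 and 12911 in tolerized grafts. The summed counts tested below were 3468591 and 2168377 UMIs, 1606203 and 1576336 UMIs, and 3384471 and 4071686 UMIs in the same order. The median mitochondrial share was 38.1% and 40.6% in naive kidneys, 25.9% and 28.0% in rejecting grafts, and 21.1% and 30.1% in tolerized grafts, so both naive kidneys lay above all 4 grafts. A limit of 20% mitochondrial UMIs left 73 and 60, 113 and 39, and 144 and 84 cells. Values under this limit are given beside many of the results for single genes and for the share of late cells. None is given for the interactions with other segments or for genes that differ between late and other cells.

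Values at the edge of the rule describe how cells were chosen. In naive replicate 1, 386 barcodes held 1 UMI of Slc12a3 and otherwise met the rule, 53 held 2 UMIs, and 562 held more. Pvalb stood at 52.1, 391.6, and 878 raw CPM in these classes, while the summed markers of the proximal tubule stood at 40242, 38187, and 4347. In the cells with 2 UMIs, Pvalb stood at 391.6 and 988 raw CPM in naive kidneys, 497 and 1415 in rejecting grafts, and 81.3 and 91.7 in tolerized grafts, and proximal tubule markers at 38187 and 18539, 30935 and 16732, and 58863 and 43653.

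Transcripts of other cell types were present in the summed DCT counts. The 15 proximal tubule markers summed to 6540 and 6991 raw CPM in naive kidneys, 8432 and 2338 in rejecting grafts, and 11465 and 8252 in tolerized grafts, led by Kap. The 15 T and NK cell markers summed to 2.88 and 3.23 raw CPM in naive kidneys, 520 and 64.7 in rejecting grafts, and 26.6 and 19.6 in tolerized grafts. Ccl5 led in rejecting replicate 1 at 260.2 raw CPM, and Cd3e was at 0 by the rule. The 14 macrophage and monocyte markers summed to 18.7 and 48.4, 742 and 134, and 204 and 59.2 raw CPM, led in rejecting replicate 1 by Lyz2 (lysozyme), with Ptprc at 0 by the rule. The 6 B cell markers summed to 14.7 and 4.61, 54.8 and 59.0, and 33.1 and 73.9 raw CPM. Transcripts of T and NK cells and macrophages, but not of B cells, were thus most abundant in rejecting replicate 1, and their part in the results was tested only where values are given below. The markers of the thick ascending limb summed to 4182 and 4764, 3096 and 5459, and 3512 and 4106 raw CPM, led by Umod (uromodulin) at 2442 and 3298, 2287 and 4576, and 2725 and 3040.0 raw CPM, with Slc12a1 at 0 by the rule. Of 2230 DCT barcodes, 1 sequence occurred in 2 libraries (tolerized replicate 1 and rejecting replicate 2).

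Counts were summed over the DCT cells of each kidney, and 10549 genes were tested with edgeR's quasi-likelihood test at a false discovery rate (FDR) of 0.05, with the kidney as the replicate (n = 2 per group) and without the 5 genes of the rule. Levels are in CPM after TMM scaling unless called raw, and changes are log2 fold changes ± SE. Rejecting kidneys differed from naive kidneys in 1989 genes (18.9% of those tested), with 1068 higher (10.1%) and 921 lower (8.73%). Tolerized kidneys differed from naive kidneys in 1396 genes (13.2%), with 790 higher (7.49%) and 606 lower (5.74%). Naive kidneys and grafts did not overlap in 61.2% and 61.6% of genes. Both comparisons share the naive kidneys. The labels do not tie a replicate number to an experiment, and calls of named genes that changed with the number as a block are given with their blocked FDR.

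In sign, 7 of 19 genes of DCT identity, 7 of 23 of the NCC and potassium pathway, 4 of 16 of magnesium handling, and 5 of 13 of calcium handling were higher in rejecting than in naive kidneys, against 5319 of 10549 genes over all. In tolerized kidneys 6, 6, 3, and 5 were, against 5392. By the test, of 19 tested genes of DCT identity, 2 were higher and 5 lower in rejecting kidneys (median log2 fold change -0.47), and 2 were higher and 4 lower in tolerized kidneys (median -0.18). Of 23 genes of the NCC and potassium pathway, 1 was higher and 3 were lower in each comparison, with medians of -0.17 and -0.11. Over all genes tested, the medians were 0.01 and 0.02. For the NCC and potassium pathway the share of genes called lies near that of all genes tested. So does the share of DCT identity genes called higher in rejecting kidneys.

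Klhl3, the adaptor that brings WNK kinases to the ubiquitin ligase (chr13:58000228-58113592), stood at 90.9 and 36.98 CPM in naive kidneys, 159.5 and 169 in rejecting grafts, and 197 and 225 in tolerized grafts. All 4 grafts were above both naive kidneys, and the naive kidneys themselves were far apart. Its log2 fold change was 1.33 ± 0.33 in rejecting kidneys (FDR 0.0197) and 1.69 ± 0.32 in tolerized kidneys (FDR 0.00823). Ppp1r1a, a protein phosphatase inhibitor enriched in the DCT (chr15:103530279-103538003), stood at 1415 and 1551 CPM in naive kidneys, 439 and 563 in rejecting grafts, and 531 and 725 in tolerized grafts. Its change was -1.57 ± 0.22 in rejecting kidneys (FDR 0.0015) and -1.24 ± 0.22 in tolerized kidneys (FDR 0.00575), with no overlap between naive kidneys and grafts. Bsnd, barttin, the subunit that basolateral chloride channels need, stood at 81.3 and 89.4 CPM in naive kidneys, 52.2 and 30.2 in rejecting grafts, and 42.9 and 54.3 in tolerized grafts, a change of -1.04 ± 0.25 in rejecting kidneys (FDR 0.0189) and -0.81 ± 0.24 in tolerized kidneys (FDR 0.04999). Cab39, a scaffold that activates SPAK, was at 77.8 and 77.5 CPM in naive kidneys, 44.7 and 56.3 in rejecting grafts, and 39.1 and 52.8 in tolerized grafts and passed the test in tolerized kidneys, at -0.75 ± 0.20 (FDR 0.0358), against -0.62 ± 0.21 (FDR 0.0649) in rejecting kidneys, and the change between the 2 kinds of graft did not pass.

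Wnk4, the kinase that governs NCC in these cells, was at 324 and 391 CPM in naive kidneys, 273 and 239.5 in rejecting grafts, and 291 and 291 in tolerized grafts, naive kidneys above all grafts, but its change of -0.48 ± 0.18 in rejecting kidneys (FDR 0.0884) and -0.30 ± 0.18 in tolerized kidneys (FDR 0.301) did not pass the test. Pvalb, a calcium-binding protein of the early DCT, was at 944 and 1018 CPM in naive kidneys, 811 and 1131 in rejecting grafts, and 780 and 1650 in tolerized grafts, with overlapping groups. Among cells with at most 20% mitochondrial UMIs, Klhl3 no longer passed, at 0.80 (FDR 0.314) in rejecting and 1.16 (FDR 0.154) in tolerized kidneys, and Bsnd was at 0.01 (FDR 0.995) in rejecting kidneys, whereas Ppp1r1a stayed lower at -2.01 (FDR 9.19e-04) and -1.80 (FDR 0.00215). In tolerized kidneys, Bsnd (-0.63, FDR 0.348) and Cab39 (-0.59, FDR 0.313) did not pass under this limit. Calls that did not hold with a single kidney left out were those of Klhl3 (in rejecting kidneys FDR 0.0865 without naive replicate 2, in tolerized kidneys 0.0541 without tolerized replicate 2), Bsnd (in rejecting kidneys 0.0661 to 0.119 without naive replicate 1 or 2 or rejecting replicate 2, in tolerized kidneys 0.112 to 0.278 without naive replicate 1 or 2 or tolerized replicate 1 or 2), Cab39 (0.0558 to 0.243 without naive replicate 1 or 2 or tolerized replicate 1 or 2), and, in tolerized kidneys, Ppp1r1a (0.0566 to 0.0838 without naive replicate 1 or 2 or tolerized replicate 1). With the replicate block, Bsnd had an FDR of 0.0699 in tolerized kidneys, and with DCT cells over 1% proximal tubule marker UMIs left out one of 0.0898.

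**Figure D1:**
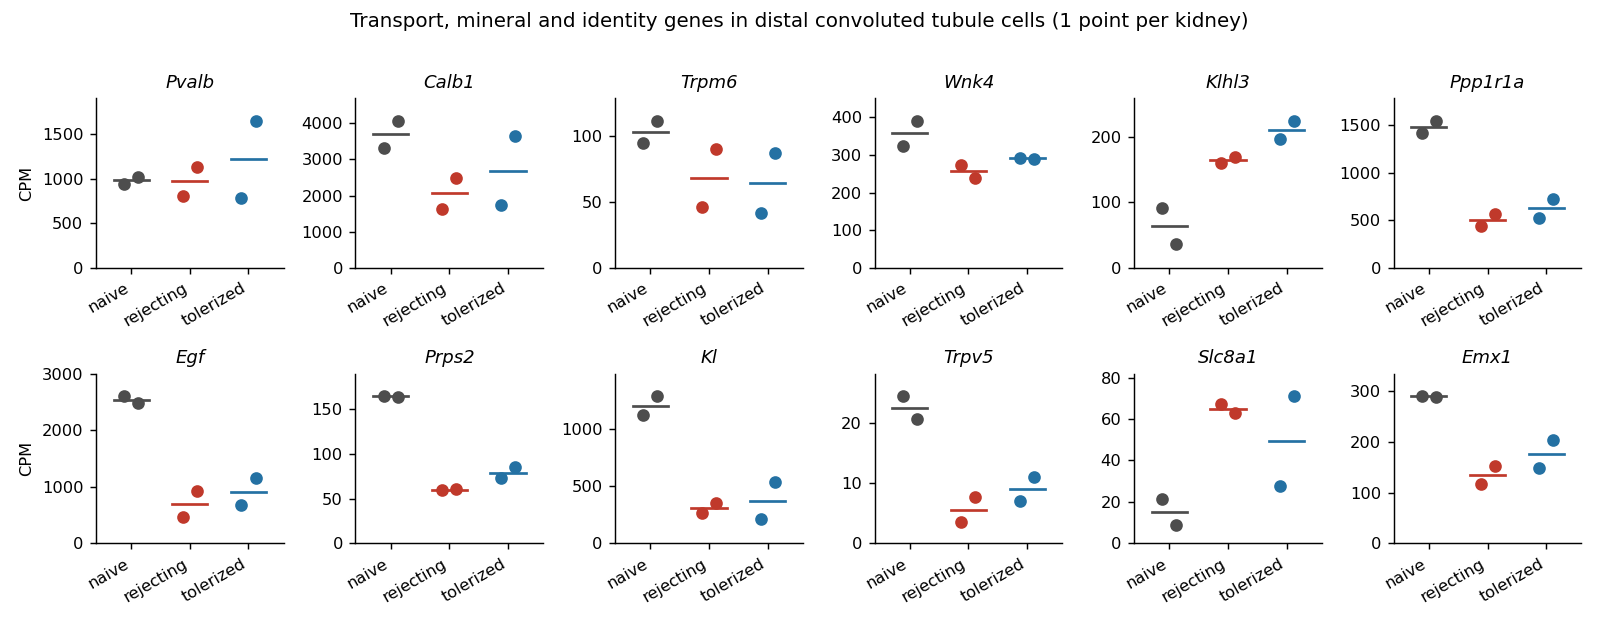
Levels of 12 DCT transport, magnesium, and calcium genes in summed counts of DCT cells, in CPM (vertical axes, linear), for 2 naive, 2 rejecting, and 2 tolerized kidneys. Points are kidneys and bars are means of 2 kidneys. Egf, Kl, Prps2, and Ppp1r1a are lower in all 4 grafts than in both naive kidneys, Klhl3 is higher, and Pvalb overlaps between groups.

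Of 16 tested genes of magnesium handling, 2 were higher and 4 lower in rejecting kidneys (median -0.59), and 1 was higher and 3 lower in tolerized kidneys (median -0.29). The shares higher lie near those over all genes tested (10.1% and 7.49%), and the lower ones rest on few genes. Egf, the precursor of epidermal growth factor, which in this segment stimulates magnesium uptake (chr3:129677565-129755316), stood at 2610 and 2478 CPM in naive kidneys, 462 and 919 in rejecting grafts, and 674 and 1155 in tolerized grafts. Its change was -1.88 ± 0.34 in rejecting kidneys (FDR 0.00547) and -1.48 ± 0.34 in tolerized kidneys (FDR 0.0201), and each graft held less than either naive kidney. Prps2, which makes the nucleotide precursor phosphoribosyl pyrophosphate (chrX:167346322-167382749), stood at 165 and 164 CPM in naive kidneys, 59.2 and 60.5 in rejecting grafts, and 72.5 and 85.2 in tolerized grafts, a change of -1.46 ± 0.17 in rejecting kidneys (FDR 5.59e-04) and -1.06 ± 0.16 in tolerized kidneys (FDR 0.00291). Pcbd1, a pterin dehydratase that is mutated in a magnesium-wasting disorder, was at 385 and 509 CPM in naive kidneys, 171 and 231 in rejecting grafts, and 213 and 271 in tolerized grafts and changed by -1.16 ± 0.23 in rejecting kidneys (FDR 0.00763) and -0.88 ± 0.22 in tolerized kidneys (FDR 0.0296). Slc41a1, a magnesium transporter, was low but higher in every graft, at 6.42 and 8.22 CPM in naive kidneys, 12.8 and 18.4 in rejecting grafts, and 13.8 and 17.1 in tolerized grafts, a change of 1.11 ± 0.33 in rejecting kidneys (FDR 0.0416) and 1.10 ± 0.30 in tolerized kidneys (FDR 0.0402).

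Egfr, the receptor for epidermal growth factor, stood at 7.07 and 8.73 CPM in naive kidneys, 22.1 and 14.2 in rejecting grafts, and 8.63 and 13.8 in tolerized grafts and rose in rejecting kidneys, with a change of 1.22 ± 0.36 (FDR 0.0431), against 0.53 ± 0.35 (FDR 0.3603) in tolerized kidneys. Trpm6, the magnesium channel itself, was at 94.8 and 111 CPM in naive kidneys, 45.8 and 90.1 in rejecting grafts, and 41.5 and 87.2 in tolerized grafts, and its change of -0.60 ± 0.37 in rejecting kidneys (FDR 0.282) and -0.67 ± 0.35 in tolerized kidneys (FDR 0.244) did not pass the test. Among cells with at most 20% mitochondrial UMIs, Pcbd1 stayed lower at -1.52 (FDR 0.0071) and -1.14 (FDR 0.0355), while Egf was at -1.15 (FDR 0.0774) and -0.59 (FDR 0.368) and Prps2 at -0.9997 (FDR 0.157) and -0.37 (FDR 0.594), neither past the test. Egfr in rejecting kidneys was at 1.79 (FDR 0.229) under this limit and did not pass, and Slc41a1 had too few counts to be tested. With a single kidney left out, calls did not hold for Egf in tolerized kidneys (FDR 0.128 to 0.137 without naive replicate 1 or 2 or tolerized replicate 1), Pcbd1 (in rejecting kidneys 0.0955 without naive replicate 2, in tolerized kidneys 0.0754 to 0.263 without naive replicate 1 or 2 or tolerized replicate 1 or 2), and Egfr (0.131 to 0.226 without naive replicate 1 or 2 or rejecting replicate 1). Slc41a1 lost its call without any of 5 kidneys in rejecting and any of 4 in tolerized kidneys, with FDRs from 0.058 to 0.274. With DCT cells over 1% proximal tubule marker UMIs left out, its FDR in rejecting kidneys was 0.0597. With the replicate block the FDR of Egfr in rejecting kidneys was 0.0574.

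Of 13 tested calcium genes, 1 was higher and 4 lower in rejecting kidneys (median -0.49), and 1 was higher and 2 lower in tolerized kidneys (median -0.04). The whole set of tested genes had 10.1% called higher and 8.73% called lower under rejection, against 7.49% and 5.74% for tolerized grafts. A single higher calcium gene is close to what these shares give, and the lower counts rest on few genes. Kl, klotho, the co-receptor for FGF23 (chr5:150952607-150993817), stood at 1121 and 1291 CPM in naive kidneys, 267 and 349 in rejecting grafts, and 211 and 538 in tolerized grafts. Each graft was below both naive kidneys, a change of -1.97 ± 0.37 in rejecting kidneys (FDR 0.00635) and -1.69 ± 0.36 in tolerized kidneys (FDR 0.0155). Trpv5, the apical calcium channel (chr6:41652173-41680769), was at 24.4 and 20.5 CPM in naive kidneys, 3.48 and 7.71 in rejecting grafts, and 7.01 and 10.97 in tolerized grafts and fell likewise, with a change of -2.02 ± 0.39 in rejecting kidneys (FDR 0.00738) and -1.32 ± 0.31 in tolerized kidneys (FDR 0.0231). Slc8a1, the basolateral sodium-calcium exchanger, went the other way, at 21.5 and 8.73 CPM in naive kidneys, 67.3 and 62.8 in rejecting grafts, and 27.8 and 71.2 in tolerized grafts, a change of 2.03 ± 0.47 in rejecting kidneys (FDR 0.0157) and 1.64 ± 0.45 in tolerized kidneys (FDR 0.043), and naive replicate 2 was its lowest kidney.

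Vdr, the vitamin D receptor, stood at 228 and 189 CPM in naive kidneys, 124 and 122 in rejecting grafts, and 126 and 183 in tolerized grafts and fell in rejecting kidneys, with a change of -0.77 ± 0.21 (FDR 0.0323), against -0.44 ± 0.21 (FDR 0.197) in tolerized kidneys. Calb1 was at 3324 and 4073 CPM in naive kidneys, 1641 and 2500 in rejecting grafts, and 1731 and 3646 in tolerized grafts, with tolerized replicate 2 inside the naive range, and its change of -0.84 ± 0.34 in rejecting kidneys (FDR 0.118) and -0.46 ± 0.34 in tolerized kidneys (FDR 0.411) did not pass the test. With at most 20% mitochondrial UMIs, Kl was at -0.56 (FDR 0.398) and -0.36 (FDR 0.622), Slc8a1 at 1.45 (FDR 0.452) and 2.34 (FDR 0.186), and Vdr at 0.05 (FDR 0.947) and 0.13 (FDR 0.83), so none of these passed and the direction of Vdr turned. Trpv5 had too few counts to be tested there. Calls that did not hold with a single kidney left out were those of Kl (in rejecting kidneys FDR 0.0616 without naive replicate 2, in tolerized kidneys 0.0839 to 0.132 without naive replicate 1 or 2), Trpv5 (in rejecting kidneys 0.0716 without naive replicate 1, in tolerized kidneys 0.118 to 0.206 without naive replicate 1 or 2 or tolerized replicate 1), Slc8a1 (in rejecting kidneys 0.122 without naive replicate 2, in tolerized kidneys 0.0765 to 0.281 without naive replicate 1 or 2 or tolerized replicate 2), and Vdr (0.0692 to 0.205 without naive replicate 1 or 2 or rejecting replicate 1 or 2). The change of Slc8a1 ranged from 1.59 (without naive replicate 2) to 2.88 (without naive replicate 1) in rejecting and from 0.81 (without tolerized replicate 2) to 2.50 (without naive replicate 1) in tolerized kidneys. With the replicate block, Slc8a1 had an FDR of 0.0661 in tolerized kidneys, and Calb1 passed in rejecting kidneys, at -0.87 (FDR 0.0406).

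Of 15 transcription factors and energy regulators of the DCT, 5 were lower and none higher in rejecting kidneys (median -0.55), and 3 were lower in tolerized kidneys (median -0.23). Among all genes tested, 8.73% and 5.74% were lower in these comparisons. Hoxd8, a homeobox factor of the distal nephron, stood at 470.3 and 481 CPM in naive kidneys, 208 and 232 in rejecting grafts, and 260 and 263 in tolerized grafts, a change of -1.11 ± 0.17 in rejecting kidneys (FDR 0.001999) and -0.86 ± 0.16 in tolerized kidneys (FDR 0.00823). Emx1, another homeobox factor, was at 291 and 289 CPM in naive kidneys, 117 and 152 in rejecting grafts, and 148 and 203 in tolerized grafts and changed by -1.11 ± 0.21 in rejecting kidneys (FDR 0.00655) and -0.72 ± 0.20 in tolerized kidneys (FDR 0.0461). Esrrb, an orphan nuclear receptor, was at 25.1 and 24.1 CPM in naive kidneys, 6.96 and 5.33 in rejecting grafts, and 7.55 and 13.3 in tolerized grafts, with a change of -1.99 ± 0.36 in rejecting kidneys (FDR 0.00502) and -1.23 ± 0.28 in tolerized kidneys (FDR 0.0207). Sall3, a zinc finger factor, fell in rejecting kidneys to 44.1 and 43.9 CPM from 86.4 and 69.8, a change of -0.84 ± 0.19 (FDR 0.0133), and its change in tolerized kidneys was -0.53 ± 0.17 (FDR 0.0757). Ppargc1a, the coactivator of mitochondrial biogenesis, fell in rejecting kidneys, with a change of -0.65 ± 0.19 (FDR 0.0375). Abca13, an ABC transporter on the identity list, rose in both kinds of graft, at 498 and 265 CPM in naive kidneys, 954 and 977 in rejecting grafts, and 796 and 853 in tolerized grafts, a change of 1.34 ± 0.27 in rejecting kidneys (FDR 0.00867) and 1.11 ± 0.27 in tolerized kidneys (FDR 0.0252).

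With at most 20% mitochondrial UMIs, Emx1 stayed lower at -1.42 (FDR 0.0191) and -1.22 (FDR 0.0412), and Abca13 kept its calls, at 2.43 (FDR 4.24e-04) and 2.01 (FDR 0.00193), whereas Hoxd8 (FDR 0.0803 and 0.12), Sall3 (0.0518), and Ppargc1a (0.379) did not pass. Esrrb had too few counts to be tested there. With a single kidney left out, calls did not hold in rejecting kidneys for Emx1 (FDR 0.0564 to 0.0618 without naive replicate 1 or 2), Sall3 (0.113 without naive replicate 1), Ppargc1a (0.0645 to 0.264 without naive replicate 1 or 2, rejecting replicate 2, or tolerized replicate 1 or 2), and Abca13 (0.078 without naive replicate 2), and in tolerized kidneys for Emx1 (0.0649 to 0.293 without naive replicate 1 or 2 or tolerized replicate 1 or 2), Hoxd8 (0.0685 to 0.105 without naive replicate 1 or 2 or tolerized replicate 1 or 2), Esrrb (0.127 to 0.149 without naive replicate 1 or 2 or tolerized replicate 1), and Abca13 (0.0887 to 0.188 without naive replicate 2 or tolerized replicate 1 or 2). With DCT cells over 1% proximal tubule marker UMIs left out, Emx1 in tolerized kidneys had an FDR of 0.0533.

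**Figure D2:**
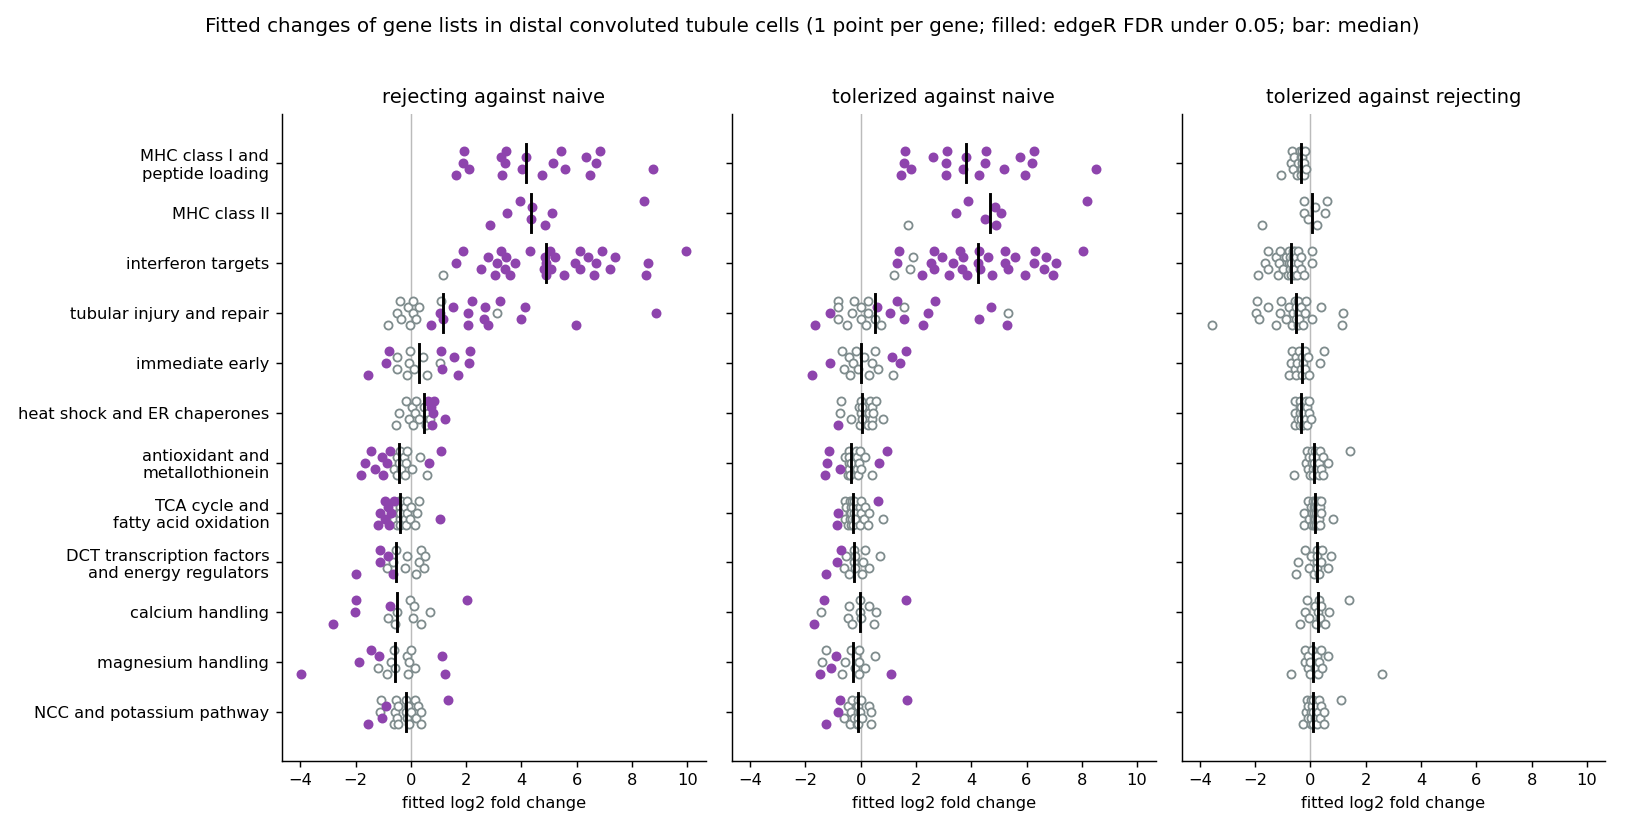
Log2 fold changes of the tested genes of 12 lists in DCT cells (horizontal axis, log2) in the 3 comparisons. Each point is a gene, filled where the edgeR FDR is under 0.05, and each bar is the list's median. The MHC and interferon lists lie well to the right of 0 in both comparisons with naive kidneys, the transport lists straddle 0, and no point is filled between tolerized and rejecting kidneys.

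Genes of antigen presentation were higher in DCT cells of both kinds of graft. All 19 tested genes of MHC class I and peptide loading were higher in rejecting kidneys (median 4.18) and in tolerized kidneys (median 3.83). B2m, beta-2-microglobulin, the invariant chain of class I molecules (chr2:122147686-122153083), stood at 116 and 132 CPM in naive kidneys, 1764 and 2729 in rejecting grafts, and 1584 and 1929 in tolerized grafts. Its change was 4.18 ± 0.27 in rejecting kidneys (FDR 1.49e-05) and 3.83 ± 0.27 in tolerized kidneys (FDR 2.53e-05). H2-K1, a class I heavy chain, was at 141 and 169 CPM in naive kidneys, 2495 and 2536 in rejecting grafts, and 2098 and 1965 in tolerized grafts, and its change was 4.02 ± 0.22 in rejecting kidneys (FDR 4.60e-06) and 3.71 ± 0.21 in tolerized kidneys (FDR 9.43e-06). By the strain labels, transcripts in grafts can carry the BALB/c or the B6 allele of H2-K1, and their origin was not tested. An effect of the allele on the alignment cannot be told apart from the change. Psmb8, a catalytic subunit of the immunoproteasome (chr17:34197721-34201454), was at 6.75 and 8.22 CPM in naive kidneys, 787 and 755 in rejecting grafts, and 510.3 and 585 in tolerized grafts, a change of 6.70 ± 0.24 in rejecting kidneys (FDR 1.26e-06) and 6.21 ± 0.24 in tolerized kidneys (FDR 1.25e-06). Tap1, a subunit of the peptide transporter, was at 3.85 and 6.68 CPM in naive kidneys, 171 and 185 in rejecting grafts, and 115 and 113 in tolerized grafts, a change of 5.14 ± 0.25 in rejecting kidneys (FDR 2.91e-06) and 4.49 ± 0.25 in tolerized kidneys (FDR 8.38e-06). For these genes, both naive kidneys lay far below every graft.

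Interferon-stimulated response elements (ISREs) are the short promoter sequences that interferon-activated factors bind. The letters GAAA followed by any 2 bases and GAAA were searched on both strands in the 250 bases before the start of each gene (RefSeq, GRCm38.p6). They were found in 3.46% of 27025 promoters, in 3.17% of the 8299 tested genes with a promoter, in 16 of 24 interferon targets (66.7%), and in 3 of 16 MHC class I genes (18.8%), where only tested members with a promoter in the table are counted (24 of 33 and 16 of 19). Likewise they were found in 2 of 14 NCC and potassium genes (14.3%), in 0 of 14 magnesium genes, and in 1 of 11 calcium genes (9.09%). The shares of the class I, NCC, and calcium lists rest on few genes. Igtp, Gbp2, and B2m are shown because they carry a match and moved together, with the match in capitals at its first base 34, 59, and 139 bases before the start, at chr11:58199306-58199555, chr3:142620413-142620662, and chr2:122147437-122147686, with each promoter on the plus strand. The match in Gbp2 reads on the opposite strand. GENCODE M21, used for the other coordinates, starts Gbp2 at chr3:142620602, within this window and just before the match. A match is a description of the letters and not a measured binding site.
Igtp: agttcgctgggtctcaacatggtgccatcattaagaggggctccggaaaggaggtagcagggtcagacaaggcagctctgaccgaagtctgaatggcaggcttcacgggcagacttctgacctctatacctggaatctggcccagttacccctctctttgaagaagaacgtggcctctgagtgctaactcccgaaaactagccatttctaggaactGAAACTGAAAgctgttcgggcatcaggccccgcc
Gbp2: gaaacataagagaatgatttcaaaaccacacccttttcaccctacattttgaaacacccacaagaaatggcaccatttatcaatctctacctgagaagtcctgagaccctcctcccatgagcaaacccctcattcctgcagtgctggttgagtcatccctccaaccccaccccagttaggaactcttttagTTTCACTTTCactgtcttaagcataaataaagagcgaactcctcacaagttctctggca
B2m: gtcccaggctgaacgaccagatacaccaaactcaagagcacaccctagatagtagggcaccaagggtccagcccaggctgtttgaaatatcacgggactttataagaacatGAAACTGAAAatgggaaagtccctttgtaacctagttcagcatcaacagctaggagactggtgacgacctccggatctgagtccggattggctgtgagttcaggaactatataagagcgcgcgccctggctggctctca

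Interferon targets rose almost without exception. Of 33 tested, 32 were higher in rejecting kidneys (median 4.89) and 30 in tolerized kidneys (median 4.24), and with genes absent from naive kidneys set at their lower bounds the medians were 4.87 and 3.69. Igtp and Iigp1 encode immunity-related GTPases. Igtp stood at 9.96 and 14.9 CPM in naive kidneys, 423 and 382 in rejecting grafts, and 279.9 and 311 in tolerized grafts, a change of 5.05 ± 0.24 in rejecting kidneys (FDR 2.91e-06) and 4.61 ± 0.24 in tolerized kidneys (FDR 4.96e-06). Iigp1 stood at 6.104 and 15.9 CPM in naive kidneys, 1219 and 1855 in rejecting grafts, and 1019 and 1043 in tolerized grafts, a change of 7.21 ± 0.42 in rejecting kidneys (FDR 6.74e-06) and 6.63 ± 0.41 in tolerized kidneys (FDR 1.40e-05). Gbp2, a guanylate-binding protein, was at 0.964 and 3.08 CPM in naive kidneys, 136 and 119 in rejecting grafts, and 94.9 and 81.9 in tolerized grafts, a change of 6.11 ± 0.34 in rejecting kidneys (FDR 5.48e-06) and 5.58 ± 0.34 in tolerized kidneys (FDR 1.40e-05).

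Gbp2b, its relative (chr3:142594847-142619179), had no UMI in either naive kidney and stood at 281 and 263 CPM in rejecting and 195 and 191 CPM in tolerized kidneys, at least 459-fold and 325-fold higher against a floor of 3 UMIs over the naive group. Irf1, a factor induced by interferon-gamma, was at 11.6 and 8.73 CPM in naive kidneys, 124 and 99.6 in rejecting grafts, and 62.3 and 68.1 in tolerized grafts, a change of 3.43 ± 0.23 in rejecting kidneys (FDR 1.52e-05) and 2.65 ± 0.23 in tolerized kidneys (FDR 8.28e-05). Isg15, a ubiquitin-like modifier, was at 6.42 and 6.68 CPM in naive kidneys, 141 and 239.5 in rejecting grafts, and 104 and 85.7 in tolerized grafts, a change of 4.85 ± 0.32 in rejecting kidneys (FDR 1.49e-05) and 3.85 ± 0.32 in tolerized kidneys (FDR 6.67e-05). In each case the naive kidneys were lowest and the rejecting kidneys lay above the tolerized kidneys. These genes and those of class I kept their calls with at most 20% mitochondrial UMIs, where the changes were 3.23 and 2.94 for B2m and 5.25 and 4.82 for Psmb8.

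MHC class II genes, which tubular cells make under interferon-gamma but which leukocytes make constitutively, were higher in rejecting kidneys in 8 of 8 tested (median 4.36) and in tolerized kidneys in 7 of 8 (median 4.69, or 4.51 at lower bounds). Cd74, the invariant chain, was at 33.4 and 24.6 CPM in naive kidneys, 911 and 318 in rejecting grafts, and 992 and 763 in tolerized grafts, a change of 4.38 ± 0.47 in rejecting kidneys (FDR 3.31e-04) and 4.90 ± 0.48 in tolerized kidneys (FDR 1.90e-04). H2-Ab1, a class II beta chain, was at 8.35 and 11.3 CPM in naive kidneys, 404 and 152 in rejecting grafts, and 357 and 302 in tolerized grafts, a change of 4.85 ± 0.47 in rejecting kidneys (FDR 1.78e-04) and 5.09 ± 0.47 in tolerized kidneys (FDR 1.37e-04). By the strain labels, donor and recipient carry different haplotypes of this gene. Which of them the transcripts in grafts came from was not tested. With DCT cells over 1% proximal tubule marker UMIs left out, the changes were smaller, at 3.27 (FDR 0.00116) in rejecting and 2.48 (FDR 0.00652) in tolerized kidneys for Cd74 and 3.81 (FDR 3.28e-04) and 3.11 (FDR 0.00154) for H2-Ab1. Ciita, the master regulator of class II transcription, had no UMI in naive kidneys and was at 24.4 and 7.70 CPM in rejecting and 17.5 and 9.69 CPM in tolerized kidneys, at least 27.1-fold and 23-fold higher. Without naive replicate 1, its FDR in tolerized kidneys was 0.0683.

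Leukocyte transcripts were examined by taking DCT cells without a single UMI of the T and NK cell, macrophage, and B cell markers, a split chosen after the data were seen. Such cells numbered 546 and 463 in naive kidneys, 8 and 24 in rejecting grafts, and 69 and 60 in tolerized grafts, that is 88.8% and 88.4%, 2.46% and 13.6%, and 21.7% and 22.1% of DCT cells. They were shallower in grafts, with medians of 756 and 2309 UMIs in rejecting and 5252 and 5127.5 in tolerized kidneys, against 2390 and 8221, and 7487 and 17806 in the other DCT cells, so levels and zeros in the 8 cells of rejecting replicate 1 rest on few UMIs. In them, B2m stood at 94.9 and 109.8 raw CPM in naive kidneys, 2909 and 2759 in rejecting grafts, and 1693 and 1952 in tolerized grafts. Iigp1 stood at 3.97 and 14.9, 1524 and 2142, and 1183 and 1094 raw CPM. Cd74 stood at 2.98 and 9.06, 277 and 140.3, and 460.3 and 368 raw CPM, against 214 and 106, 981 and 355, and 1197 and 782 raw CPM in the cells that held such a UMI. H2-Ab1 stood at 1.98 and 5.33, 0 and 46.8, and 173 and 191 raw CPM. Cxcl10 stood at 3.31 and 9.59, 138.5 and 187, and 121 and 21.2 raw CPM, against 31.5 and 10.3, 251 and 578, and 157 and 144 in the cells with such a UMI. Gdf15 stood at 8.93 and 6.93, 0 and 122, and 39.7 and 27.5 raw CPM, against 9 and 0, 178 and 117, and 62.1 and 40.3. B2m, Iigp1, and Cd74 thus lay above naive kidneys in every graft also in these cells, whereas H2-Ab1 and Gdf15 were at 0 in rejecting replicate 1. How much of these levels came from transcripts of other cells was not measured.

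**Figure D3:**
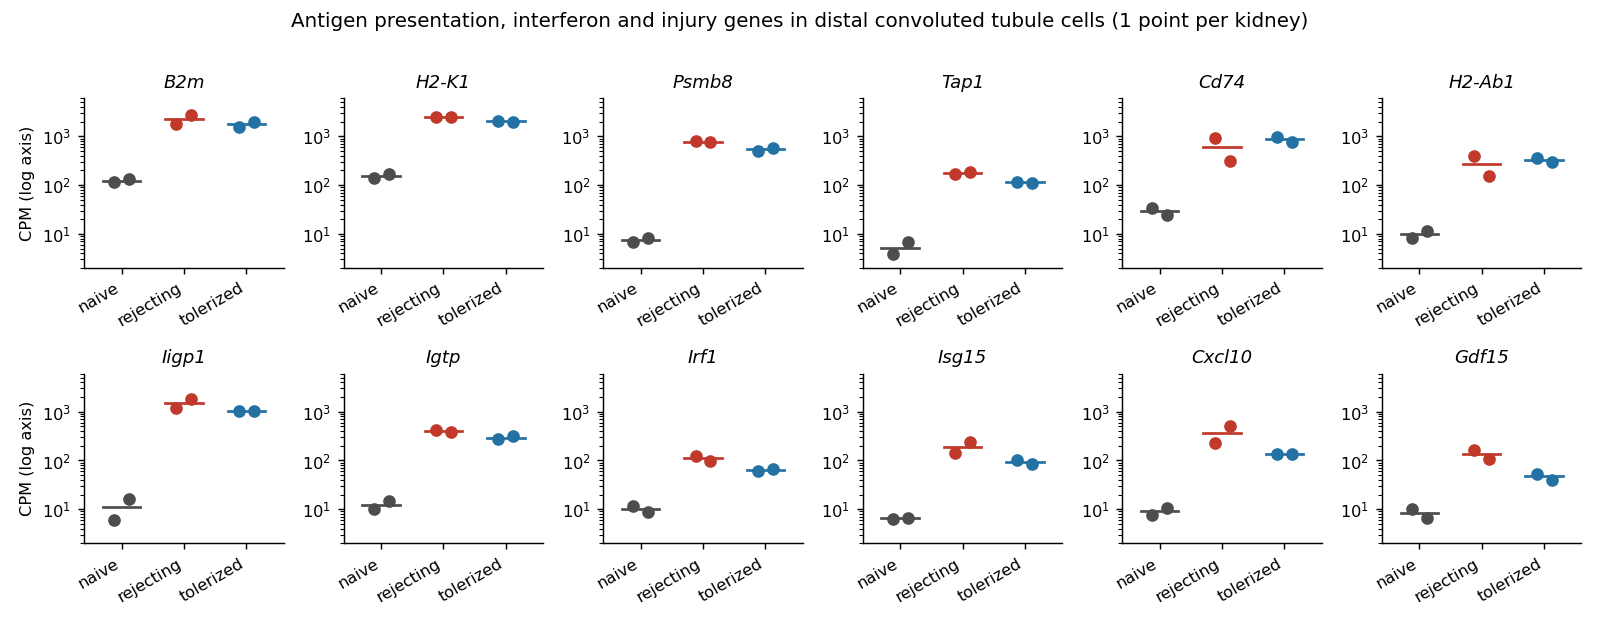
Levels of 12 immune genes in summed counts of DCT cells, in CPM (vertical axes, logarithmic), for 2 naive, 2 rejecting, and 2 tolerized kidneys. Points are kidneys and bars are means of 2 kidneys. All 4 grafts lie above both naive kidneys for each gene, and for Irf1, Isg15, Cxcl10, and Gdf15 both rejecting kidneys lie above both tolerized kidneys.

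Of 8 tested chemokines, 6 were higher in rejecting kidneys and 4 in tolerized kidneys, against 10.1% and 7.49% of all genes tested. Cxcl10, which draws CXCR3-positive T cells, stood at 7.71 and 10.8 CPM in naive kidneys, 234 and 515 in rejecting grafts, and 138 and 135 in tolerized grafts, a change of 5.37 ± 0.41 in rejecting kidneys (FDR 3.74e-05) and 3.91 ± 0.40 in tolerized kidneys (FDR 2.25e-04). Cxcl9, which binds the same receptor, had 0 and 0.51 CPM in naive kidneys, 63.2 and 19.0 in rejecting grafts, and 6.50 and 11.7 in tolerized grafts. Cxcl16, a membrane-bound chemokine of epithelia, changed by 3.44 ± 0.27 in rejecting kidneys (FDR 4.71e-05) and 2.95 ± 0.27 in tolerized kidneys (FDR 1.21e-04). With at most 20% mitochondrial UMIs, the changes of Cxcl10 were 3.87 and 2.79, and Cxcl9 had too few counts to be tested. The call for Cxcl9 in tolerized kidneys was lost without naive replicate 1, naive replicate 2, or tolerized replicate 2 (FDR 0.197, 0.102, and 0.098).

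Of 8 complement genes, 4 were higher and 2 lower in rejecting kidneys and 5 were higher in tolerized kidneys. Over all genes tested, 10.1% were higher and 8.73% lower in rejecting kidneys, and 7.49% were higher in tolerized kidneys. C4b, a component of the classical pathway, rose from 0.32 and 0 CPM in naive kidneys to 34.2 and 15.4 in rejecting grafts and to 58.3 and 48.5 in tolerized grafts. With DCT cells over 1% proximal tubule marker UMIs left out, its changes of 3.08 and 3.81 had FDRs of 0.182 and 0.0693.

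Of 27 tested genes of tubular injury and repair, 15 were higher and none lower in rejecting kidneys (median 1.15), and 10 were higher and 2 lower in tolerized kidneys (median 0.51). Gdf15, a stress-induced cytokine, stood at 9.96 and 6.68 CPM in naive kidneys, 165 and 109.7 in rejecting grafts, and 53.7 and 40.3 in tolerized grafts, a change of 3.99 ± 0.30 in rejecting kidneys (FDR 3.74e-05) and 2.45 ± 0.30 in tolerized kidneys (FDR 7.86e-04). Krt18, a keratin of simple epithelia, was at 17.7 and 20.03 CPM in naive kidneys, 78.3 and 79.4 in rejecting grafts, and 52.3 and 40.3 in tolerized grafts, a change of 2.07 ± 0.21 in rejecting kidneys (FDR 2.50e-04) and 1.30 ± 0.21 in tolerized kidneys (FDR 0.00354). Rejecting kidneys lay above tolerized kidneys, and tolerized above naive kidneys, for Gdf15 and Krt18. With at most 20% mitochondrial UMIs, Krt18 in tolerized kidneys was at 1.10 (FDR 0.213) and did not pass.

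Lcn2, lipocalin-2, a marker of distal tubular injury, was uneven, at 0 and 1.54 CPM in naive kidneys, 98.04 and 504 in rejecting grafts, and 46.7 and 5.102 in tolerized grafts, with a change of 8.86 ± 1.46 (FDR 0.00329) in rejecting and 5.32 ± 1.74 (FDR 0.0741) in tolerized kidneys. In the DCT cells without leukocyte marker UMIs it was at 0 in both rejecting kidneys (8 and 24 cells), and in the cells with such UMIs it was at 106 and 578 raw CPM there. In tolerized kidneys it was at 1.98 and 38.1 raw CPM in cells without such UMIs and at 59.7 and 0.556 in cells with them. The change in tolerized kidneys was 2.98 (FDR 0.414) without tolerized replicate 1 and 9.19 (FDR 0.22) without naive replicate 2, and it passed without tolerized replicate 2 (6.17, FDR 0.0312), without rejecting replicate 1 or 2 (FDR 0.0278 and 0.0275), and with the proximal tubule limit (5.97, FDR 0.0428). Without naive replicate 1, the FDR was 0.0604 for Lcn2 in rejecting kidneys, and in tolerized kidneys 0.0683 for Krt18.

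Immediate early genes respond to stress and to dissociation. Of 18 tested, 6 were higher and 3 lower under rejection (median 0.28), against 10.1% and 8.73% of all genes. In tolerized grafts 3 were higher and 2 lower (median 0.02), against 7.49% and 5.74% of all genes. Klf6 was at 67.8 and 65.2 CPM in naive kidneys, 299 and 269 in rejecting grafts, and 233 and 129 in tolerized grafts, a change of 2.09 ± 0.27 in rejecting kidneys (FDR 8.11e-04) and 1.44 ± 0.26 in tolerized kidneys (FDR 0.00642). Jun changed by 1.57 ± 0.29 in rejecting kidneys (FDR 0.00585) and 1.14 ± 0.29 in tolerized kidneys (FDR 0.0296). Nr4a1 fell, at 52.4 and 44.2 CPM in naive kidneys, 15.7 and 17.2 in rejecting grafts, and 19.7 and 8.93 in tolerized grafts, a change of -1.56 ± 0.34 in rejecting kidneys (FDR 0.0118) and -1.77 ± 0.31 in tolerized kidneys (FDR 0.00536). Of 19 chaperones, 6 were higher in rejecting kidneys, against 10.1% of all genes tested. In tolerized kidneys 1 was lower, near the share of all genes tested (5.74%). Jun did not pass in rejecting kidneys with at most 20% mitochondrial UMIs (FDR 0.336), nor did Jun and Klf6 in tolerized kidneys (0.779 and 0.0619). Calls that did not hold with a single kidney left out were, in rejecting kidneys, those of Jun (FDR 0.0678 to 0.0773 without naive replicate 1 or 2) and Nr4a1 (0.0556 to 0.0897 without naive replicate 1 or 2) and, in tolerized kidneys, those of Klf6 (0.083 to 0.0942 without naive replicate 1 or 2), Jun (0.182 to 0.218 without naive replicate 1 or 2 or tolerized replicate 1), and Nr4a1 (0.0735 without naive replicate 1).

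Of 29 genes of the TCA cycle and fatty acid oxidation, 1 was higher and 8 were lower in rejecting kidneys (median -0.40), and 1 was higher and 2 were lower in tolerized kidneys (median -0.28). Of all genes tested, 8.73% and 5.74% were lower in these comparisons, so the count in tolerized kidneys lies near that of all genes. Sdha, a subunit of succinate dehydrogenase, stood at 564 and 562 CPM in naive kidneys, 261 and 259.6 in rejecting grafts, and 318 and 305 in tolerized grafts, a change of -1.11 ± 0.17 in rejecting kidneys (FDR 0.00186) and -0.85 ± 0.16 in tolerized kidneys (FDR 0.00838). Etfa, an electron carrier of fatty acid oxidation, changed by -0.94 ± 0.20 in rejecting kidneys (FDR 0.0113) and -0.83 ± 0.20 in tolerized kidneys (FDR 0.0246). With at most 20% mitochondrial UMIs, Sdha did not pass (FDR 0.138 and 0.35), while Etfa did. With a single kidney left out, calls did not hold for Sdha in tolerized kidneys (FDR 0.0635 to 0.101 without naive replicate 1 or 2 or tolerized replicate 1 or 2) and for Etfa (in rejecting kidneys 0.0832 to 0.0866 without naive replicate 1 or 2, in tolerized kidneys 0.0975 to 0.174 without naive replicate 1 or 2 or tolerized replicate 1 or 2).

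Of 23 antioxidant and metallothionein genes, 2 were higher and 8 lower in rejecting kidneys (median -0.41), and 2 were higher and 4 lower in tolerized kidneys (median -0.34). The counts of higher genes lie near the shares over all genes tested (10.1% and 7.49%). The shares lower over all genes were 8.73% and 5.74%. Cat, catalase, stood at 182 and 211 CPM in naive kidneys, 67.9 and 45.05 in rejecting grafts, and 89.8 and 86.2 in tolerized grafts, a change of -1.79 ± 0.21 in rejecting kidneys (FDR 5.85e-04) and -1.16 ± 0.20 in tolerized kidneys (FDR 0.00528). Mt2, a metallothionein, stood at 472 and 631 CPM in naive kidneys, 162 and 187 in rejecting grafts, and 224 and 223 in tolerized grafts, a change of -1.66 ± 0.20 in rejecting kidneys (FDR 5.85e-04) and -1.30 ± 0.19 in tolerized kidneys (FDR 0.002396). Without naive replicate 2 or tolerized replicate 2, Cat in tolerized kidneys had FDRs of 0.0759 and 0.0557, and with at most 20% mitochondrial UMIs 0.0636.

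Of 15 claudins and adhesion genes, 5 were higher and 2 lower in rejecting kidneys (median 0.51), and 1 was higher and 1 lower in tolerized kidneys (median 0.29), where the share called lies near that of all genes tested (13.2%). In rejecting kidneys, 10.1% of all genes tested were higher and 8.73% lower. Cdh1, E-cadherin, stood at 304 and 260.4 CPM in naive kidneys, 147 and 160 in rejecting grafts, and 129 and 156 in tolerized grafts, a change of -0.88 ± 0.18 in rejecting kidneys (FDR 0.00978) and -0.99 ± 0.18 in tolerized kidneys (FDR 0.00642). With at most 20% mitochondrial UMIs its direction turned, at 0.81 (FDR 0.117) and 0.35 (FDR 0.531). Cldn4, a tight junction protein of the distal nephron, changed by 1.81 ± 0.30 in rejecting kidneys (FDR 0.00312) and 1.17 ± 0.29 in tolerized kidneys (FDR 0.0282). Under the mitochondrial limit, Cldn4 in tolerized kidneys was at 0.98 (FDR 0.357) and did not pass. Calls that did not hold with a single kidney left out were those of Cdh1 (in rejecting kidneys FDR 0.0534 to 0.0959 without naive replicate 1 or 2, in tolerized kidneys 0.0807 to 0.0873 without naive replicate 1 or tolerized replicate 1) and of Cldn4 in tolerized kidneys (0.101 to 0.189 without naive replicate 1 or 2 or tolerized replicate 1).

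Of 15 kidney hormone receptors, 1 was higher and 3 were lower in rejecting kidneys, and 1 was higher and 1 lower in tolerized kidneys, where the share called lies near that of all genes tested (13.2%). In rejecting kidneys, 10.1% of all genes tested were higher and 8.73% lower, and the receptor counts rest on few genes. Ptger3, a prostaglandin E2 receptor, rose, at 7.39 and 6.16 CPM in naive kidneys, 45.8 and 52.2 in rejecting grafts, and 74.7 and 29.6 in tolerized grafts, a change of 2.82 ± 0.47 in rejecting kidneys (FDR 0.00329) and 2.91 ± 0.45 in tolerized kidneys (FDR 0.00284). It did not pass with at most 20% mitochondrial UMIs in rejecting (FDR 0.102) or tolerized kidneys (0.0653), and without naive replicate 1 its FDR in tolerized kidneys was 0.0535.

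Among genes with the largest changes, picked for size and for no overlap between naive kidneys and grafts, were the following. Tonsl, a DNA replication and repair protein (chr15:76626002-76639958), stood at 97.99 and 105 CPM in naive kidneys, 0.5801 and 1.78 in rejecting grafts, and 1.35 and 0.765 in tolerized grafts, and its log2 fold change was -6.38 ± 0.35 in rejecting kidneys (FDR 5.48e-06) and -6.53 ± 0.30 in tolerized kidneys (FDR 3.58e-06). Nnt, the mitochondrial transhydrogenase, part of which is deleted in the C57BL/6J substrain (chr13:119335448-119408997), stood at 141 and 142 CPM in naive kidneys, 6.38 and 4.74 in rejecting grafts, and 9.17 and 16.3 in tolerized grafts, a change of -4.66 ± 0.31 in rejecting kidneys (FDR 1.54e-05) and -3.46 ± 0.25 in tolerized kidneys (FDR 2.68e-05). Pgk1, a glycolytic enzyme, stood at 7.71 and 24.6 CPM in naive kidneys, 348 and 346 in rejecting grafts, and 402 and 332 in tolerized grafts, a change of 4.51 ± 0.40 in rejecting kidneys (FDR 9.89e-05) and 4.59 ± 0.40 in tolerized kidneys (FDR 8.53e-05). Slc25a30, a mitochondrial carrier, stood at 0.642 and 2.05 CPM in naive kidneys, 131 and 139 in rejecting grafts, and 126 and 117 in tolerized grafts, a change of 6.77 ± 0.33 in rejecting kidneys (FDR 2.91e-06) and 6.61 ± 0.32 in tolerized kidneys (FDR 4.01e-06).

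Thick ascending limb cells, chosen the same way by Slc12a1, also had Tonsl lower in every graft than in naive kidneys. Tonsl was at 98.9 and 87.3 CPM in them in naive kidneys, 2.11 and 0 in rejecting grafts, and 1.29 and 0.92 in tolerized grafts, and the difference of its change between segments had an FDR of 0.980 in rejecting kidneys. Strain, age, and the gene list of the matrices cannot be told apart from transplantation for such genes. The study's results name the B6 recipients as C57BL/6J, while its methods name B6 mice as C57BL/6 without a substrain. The cause of the order of Nnt was not tested. In rejecting kidneys, Dnase1, an endonuclease, fell from 123 and 89.4 CPM to 5.80 and 6.53, a change of -4.10 ± 0.38 (FDR 1.26e-04). In tolerized kidneys, Angptl7, a secreted angiopoietin-like protein, rose from 0.32 and 0 CPM to 52.9 and 57.7, a change of 7.83 ± 0.72 (FDR 1.40e-04). With DCT cells over 1% proximal tubule marker UMIs left out, Angptl7 was at 4.56 (FDR 0.0109) and Dnase1 at -3.05 (FDR 6.84e-05).

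No gene differed between tolerized and rejecting kidneys in DCT cells at the FDR of 0.05 (0%), against 868 at an unadjusted p under 0.05 (8.23%) and 27 by DESeq2. With the replicate block, 6 genes passed, among them Gdf15 at -1.53 (FDR 0.0329). Their groups did not overlap in 36.1% of genes. In sign, 2 of 33 interferon targets (median -0.70) and 0 of 19 MHC class I genes (median -0.35) were higher in tolerized kidneys. In the same direction lay the medians of chemokines (-0.98), tubular injury (-0.54), chaperones (-0.34), and the cell cycle (-1.27). Genes of the TCA cycle and fatty acid oxidation were higher in tolerized kidneys in sign for 25 of 29 (median 0.18). Marker genes of T and NK cells had a median of -3.50 and those of macrophages one of -1.88, and the 15 proximal tubule markers were all higher in tolerized kidneys in sign (median 0.95).

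Klk1, tissue kallikrein, a secreted protease of the late DCT and connecting tubule (chr7:44225360-44229618), stood at 3347 and 3815 CPM in naive kidneys, 2209 and 3091 in rejecting grafts, and 6167 and 5961 in tolerized grafts. Both tolerized kidneys lay above all others, but the change between tolerized and rejecting kidneys was 1.19 ± 0.23 (FDR 0.172), and 0.38 (FDR 0.999) with at most 20% mitochondrial UMIs. Gpx3, the plasma glutathione peroxidase, was at 2099 and 3245 CPM in naive kidneys, 1204 and 778 in rejecting grafts, and 2934 and 2469 in tolerized grafts, with a change of 1.45 ± 0.28 (FDR 0.175), or 0.84 (FDR 0.51) with DCT cells over 1% proximal tubule marker UMIs left out, and it fell in rejecting kidneys against naive kidneys, with a change of -1.43 ± 0.28 (FDR 0.00805), which without naive replicate 2 had an FDR of 0.0963. Among immune genes the change was -1.55 ± 0.24 (FDR 0.129) for Gdf15, -1.91 ± 0.28 (FDR 0.129) (with the proximal tubule limit -2.11, FDR 0.0389) for Zbp1, a sensor of nucleic acids, and -1.46 ± 0.31 (FDR 0.201) for Cxcl10. Top2a, a topoisomerase of dividing cells, was at 0.96 and 0 CPM in naive kidneys, 11.6 and 11.9 in rejecting grafts, and 0.81 and 1.02 in tolerized grafts, a change of -3.61 ± 0.59 (FDR 0.1302). DESeq2 called Klk1, Gpx3, Gdf15, Zbp1, Cxcl10, and Top2a, and edgeR called 139 genes without rejecting replicate 1, among them Klk1 (FDR 0.0455), Gdf15 (0.0376), and Cxcl10 (0.00447).

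DCT cells were next set against neighboring segments from the same kidneys, chosen with the equivalent rules. There were 1512 thick ascending limb cells with Slc12a1 and 1191 principal cells of the collecting duct with Aqp2. The difference of the change between segments was tested by an interaction term with the kidney as a block. Against the thick ascending limb, 139 of 10529 genes (1.32%) differed in their change in rejecting kidneys, 83 (0.788%) in tolerized kidneys, and 54 (0.513%) between tolerized and rejecting kidneys. Against principal cells, 50 of 11029 genes (0.453%), 82 (0.743%), and 3 (0.0272%) differed.

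Aebp1, a secreted carboxypeptidase-like protein of the matrix (chr11:5861947-5872088), stood in DCT cells at 113 and 93.7 CPM in naive kidneys, 157 and 167 in rejecting grafts, and 218 and 256 in tolerized grafts. In thick ascending limb cells it stood at 104 and 91.97 CPM in naive kidneys, 4.93 and 2.29 in rejecting grafts, and 5.15 and 14.4 in tolerized grafts. It was thus kept in DCT cells of grafts and nearly absent from the neighboring segment, a difference of 5.43 ± 0.39 (FDR 3.74e-08) in rejecting and 4.48 ± 0.27 (FDR 1.69e-09) in tolerized kidneys. Upp1, uridine phosphorylase, was at 63.7 and 45.2 CPM in naive kidneys, 89.7 and 87.8 in rejecting grafts, and 81.95 and 87.99 in tolerized grafts in DCT cells. In the thick ascending limb it was at 4.46 and 6.24 CPM in naive kidneys, 67.6 and 72.2 in rejecting grafts, and 44.8 and 32.1 in tolerized grafts, low in naive kidneys only, with differences of -3.12 ± 0.41 (FDR 4.34e-04) and -2.29 ± 0.43 (FDR 0.00658). Without naive replicate 1 the FDRs for Upp1 were 0.144 and 0.583.

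Pth1r, the parathyroid hormone receptor, was at 203 and 221 CPM in naive kidneys, 236 and 208 in rejecting grafts, and 194 and 232 in tolerized grafts in DCT cells. In the thick ascending limb it was at 402 and 521 CPM in naive kidneys, 194 and 186 in rejecting grafts, and 167 and 247 in tolerized grafts, lower in grafts than in naive kidneys, with differences of 1.33 ± 0.17 (FDR 2.57e-04) and 1.16 ± 0.16 (FDR 1.95e-04). Klk1 was at 3422 and 3909 CPM in naive kidneys, 2231 and 3137 in rejecting grafts, and 6267 and 6065 in tolerized grafts in DCT cells. In the thick ascending limb it was at 2496 and 2953 CPM in naive kidneys, 1603 and 2390 in rejecting grafts, and 1851 and 2698 in tolerized grafts, and the change between tolerized and rejecting kidneys differed between segments by 1.03 ± 0.15 (FDR 0.00123).

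Kl and Trpv5 changed differently in DCT cells and in principal cells. Kl was at 1285 and 1485 CPM in naive kidneys, 300.1 and 394 in rejecting grafts, and 243 and 616 in tolerized grafts in DCT cells. In principal cells it was at 522 and 416 CPM in naive kidneys, 326 and 712 in rejecting grafts, and 343 and 903 in tolerized grafts, where groups overlapped, and the differences were -2.08 ± 0.25 (FDR 0.00158) and -2.09 ± 0.24 (FDR 9.37e-04). In thick ascending limb cells Kl was also lower in every graft than in naive kidneys. It was at 233 and 207 CPM in naive kidneys, 66.9 and 90.6 in rejecting grafts, and 62.6 and 171 in tolerized grafts. Against that segment, the differences were -0.48 ± 0.17 (FDR 0.198) in rejecting and -0.75 ± 0.16 (FDR 0.0186) in tolerized kidneys. Trpv5 was at 28.01 and 23.6 CPM in naive kidneys, 3.92 and 8.69 in rejecting grafts, and 8.07 and 12.6 in tolerized grafts in DCT cells. In principal cells it was at 42.6 and 38.2 CPM in naive kidneys, 82.8 and 98.8 in rejecting grafts, and 85.6 and 59.5 in tolerized grafts, with differences of -3.19 ± 0.44 (FDR 0.00409) and -2.12 ± 0.35 (FDR 0.0105).

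Ltc4s, leukotriene C4 synthase (chr11:50236461-50238616), was at 111 and 136 CPM in naive kidneys, 285 and 245 in rejecting grafts, and 165 and 253 in tolerized grafts in DCT cells. In principal cells it was at 6.27 and 4.904 CPM in naive kidneys, 179 and 200.1 in rejecting grafts, and 171 and 134 in tolerized grafts, with differences of -3.96 ± 0.38 (FDR 9.11e-04) and -3.98 ± 0.37 (FDR 2.55e-04). Gdf15 was at 11.4 and 7.68 CPM in naive kidneys, 185 and 124 in rejecting grafts, and 61.8 and 46.1 in tolerized grafts in DCT cells. In principal cells, already high in naive kidneys, it was at 148 and 126 CPM in naive kidneys, 265 and 389 in rejecting grafts, and 189.5 and 189.5 in tolerized grafts, with differences of 2.71 ± 0.37 (FDR 0.00409) and 1.99 ± 0.37 (FDR 0.0236). No gene passed the interaction test with principal cells without naive replicate 2 in the comparisons with naive kidneys, where the differences were -1.80 and -1.83 for Kl and -3.23 and -2.17 for Trpv5.

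**Figure D4:**
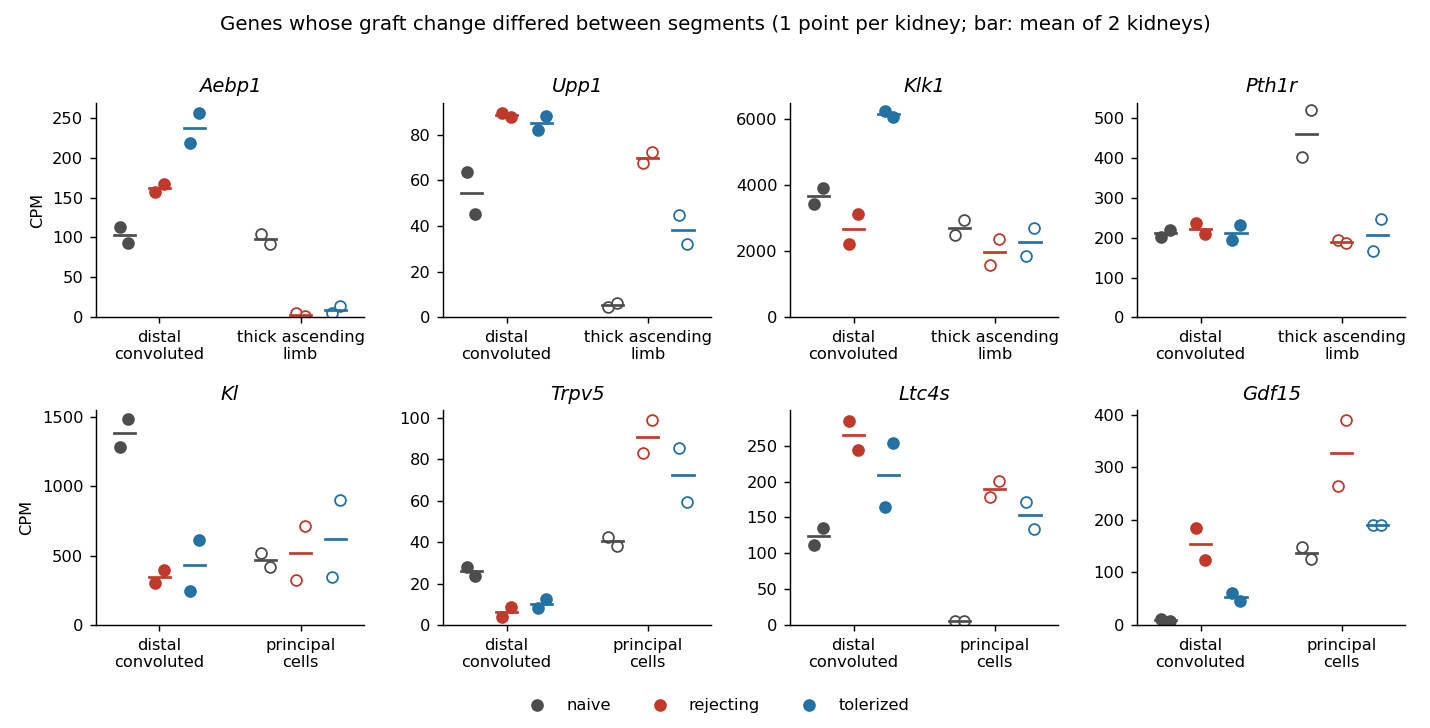
Levels of 8 genes in summed counts of DCT cells (filled points) and of a neighboring segment (open points), in CPM (vertical axes), for 2 naive, 2 rejecting, and 2 tolerized kidneys. Aebp1, Upp1, Klk1, and Pth1r are set against the thick ascending limb and Kl, Trpv5, Ltc4s, and Gdf15 against principal cells. Aebp1 is high in DCT cells and low in the thick ascending limb of grafts, and Trpv5 is lower in grafts in DCT cells and higher in principal cells.

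DCT cells were also divided within each kidney. Cells with a UMI of Slc8a1 or Trpv5, genes of the downstream end, were called late, and numbered 73 and 38 in naive kidneys, 29 and 29 in rejecting grafts, and 33 and 72 in tolerized grafts. Late and other cells of the same kidney were compared with the kidney as a block, without Slc8a1 and Trpv5. Of 8051 genes, 824 (10.2%) differed, with 292 higher (3.63%) and 532 lower (6.61%) in late cells. Late cells were deeper, with medians of 8256 and 5372 UMIs in naive kidneys, 8160 and 13459 in rejecting grafts, and 12966 and 22405 in tolerized grafts, against 5401 and 3860, 1939 and 5987, and 5662 and 9475 in other cells. Depth was addressed by thinning each cell to 1000 UMIs before the split, which gave 476 genes.

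Calcium transport genes set late cells apart. Of 9 tested calcium genes, 6 were higher and 1 lower in late cells (median 1.14), and of 9 genes of the late DCT and connecting tubule 8 were higher (median 2.39). S100g, calbindin-D9k (chrX:162961992-162964599), was at 28060 and 41680 CPM in naive kidneys, 23150 and 20570 in rejecting grafts, and 41050 and 18060 in tolerized grafts in late cells. In other cells it was at 2708 and 5571 CPM in naive kidneys, 768 and 1692 in rejecting grafts, and 2742 and 1139 in tolerized grafts, so late cells were higher in 6 of 6 kidneys, by 3.77 ± 0.15 (FDR 6.02e-18). Calb1 was at 11000 and 13280 CPM in naive kidneys, 7239 and 6683 in rejecting grafts, and 8576 and 6217 in tolerized grafts in late cells. In other cells it was at 1863 and 3104 CPM in naive kidneys, 633 and 1132 in rejecting grafts, and 585 and 2232 in tolerized grafts, a difference of 2.67 ± 0.18 (FDR 1.81e-12). Atp2b4, a plasma membrane calcium pump, differed by 1.58 ± 0.13 (FDR 1.52e-10), Kl by 1.75 ± 0.10 (FDR 8.58e-14), and Vdr by 1.14 ± 0.11 (FDR 2.70e-09).

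Scnn1b, the beta subunit of the epithelial sodium channel, was at 76.9 and 134 CPM in naive kidneys, 34.1 and 40.9 in rejecting grafts, and 73.3 and 71.4 in tolerized grafts in late cells. In other cells it was at 20.9 and 13.1 CPM in naive kidneys, 16.5 and 4.71 in rejecting grafts, and 11.98 and 12.6 in tolerized grafts, a difference of 2.39 ± 0.20 (FDR 1.07e-10). Hsd11b2, the enzyme that shields the mineralocorticoid receptor from glucocorticoids, differed by 2.54 ± 0.30 (FDR 1.79e-07) and was uneven, at 26.3 and 177 CPM in naive kidneys, 3.79 and 60.2 in rejecting grafts, and 3.76 and 81.5 in tolerized grafts in late cells. In other cells it was at 8.72 and 18.2 CPM in naive kidneys, 4.13 and 1.57 in rejecting grafts, and 7.57 and 10.6 in tolerized grafts, so late cells were higher in 4 of 6 kidneys. Klk1 differed by 1.89 ± 0.09 (FDR 6.64e-16), and Ptges, a prostaglandin E synthase, by 3.81 ± 0.27 (FDR 4.90e-12). Of 23 genes of the NCC and potassium pathway, 9 were higher and 1 lower in late cells (median 0.23), with Wnk1, the kinase upstream of SPAK, at 0.75 ± 0.08 (FDR 1.58e-08). Trpm6 was higher in late cells by 0.57 ± 0.13 (FDR 0.00239), a call lost when cells over 1% proximal tubule marker UMIs were left out (FDR 0.0868).

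Of 19 genes of DCT identity 8 were higher and 3 lower in late cells (median 0.33). Umod differed by -1.55 ± 0.13 (FDR 1.74e-10), Egf by -0.50 ± 0.11 (FDR 0.00128), and Pvalb by -0.50 ± 0.16 (FDR 0.0441), the last with FDRs of 0.264 and 0.236 without naive replicate 1 or 2 and 0.0562 without tolerized replicate 1. In rejecting replicate 2, Pvalb was at 1254 CPM in late and 1089 in other cells and Egf at 953 and 906, so these were lower in late cells in 5 of 6 kidneys, and Umod in 6 of 6. With cells thinned to 1000 UMIs before the split, these differences were -2.88, -1.05, and -1.08, and that of S100g was 2.80. All 15 proximal tubule markers (median -1.85), 4 of 4 thick ascending limb markers (median -1.78), and 6 of 6 MHC class II genes (median -1.74) were lower in late cells, while 0 of 19 MHC class I genes differed (median 0.01). Cd74 was at 0 and 10.7 CPM in naive kidneys, 383 and 69.8 in rejecting grafts, and 387 and 273 in tolerized grafts in late cells. In other cells it was at 39.4 and 26.2 CPM in naive kidneys, 1013 and 398 in rejecting grafts, and 1095 and 1027 in tolerized grafts, a difference of -1.79 ± 0.13 (FDR 1.58e-11), which was -0.63 once cells over 1% proximal tubule marker UMIs were left out.

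**Figure D5:**
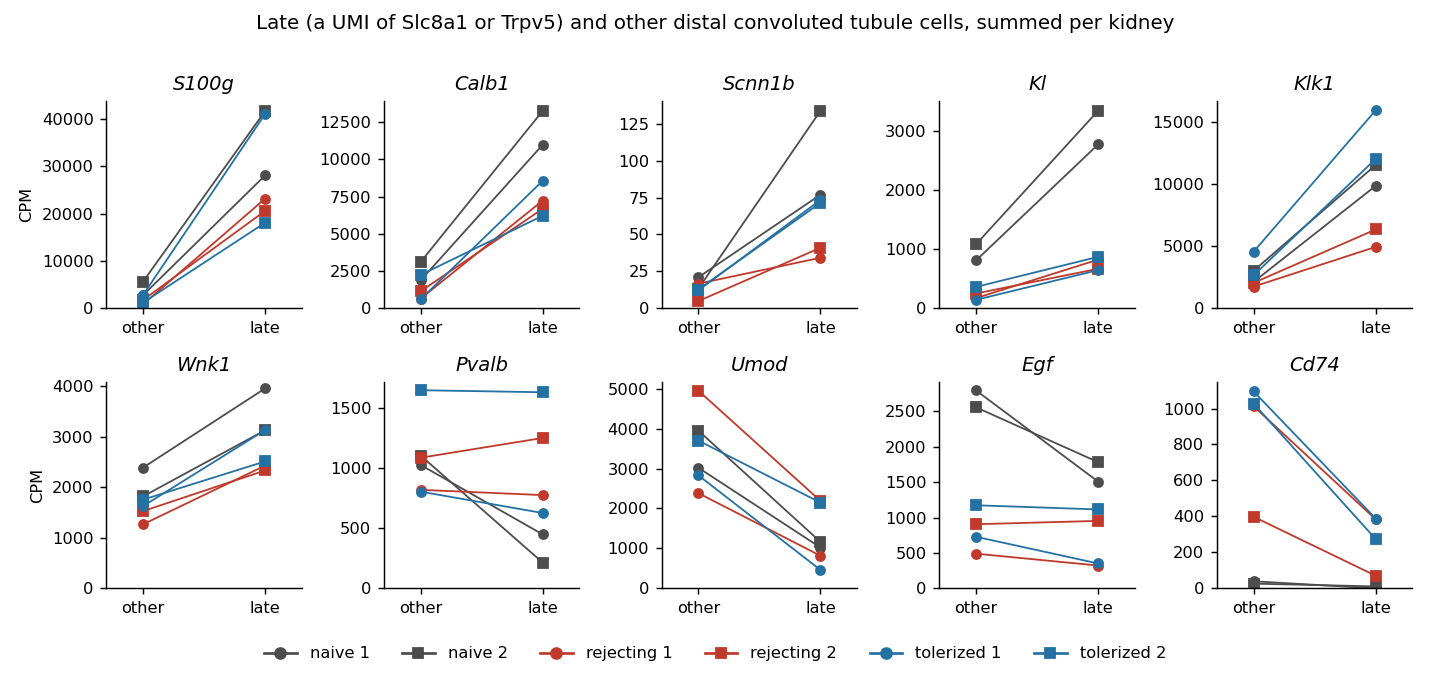
Levels of 10 genes in summed counts of other and late DCT cells of each kidney, in CPM (vertical axes), with a line joining the values of 1 kidney, for 2 naive, 2 rejecting, and 2 tolerized kidneys. S100g, Calb1, Scnn1b, Kl, Klk1, and Wnk1 are higher and Umod is lower in late cells.

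The share of late cells was compared between groups last. After thinning each cell to 1000 UMIs, it was 2.60% and 2.10% in naive kidneys, 3.68% and 4.35% in rejecting grafts, and 3.55% and 7.72% in tolerized grafts, with exact binomial 95% intervals of 1.49 to 4.19% in naive replicate 1 and 4.78 to 11.7% in tolerized replicate 2, which cover counting error only. Cells under 1000 UMIs were left out, 53 and 16 in rejecting, 8 and 12 in tolerized, and 0 in naive kidneys. Unthinned shares were 11.9% and 7.25%, 8.92% and 16.4%, and 10.4% and 26.6%. Naive kidneys were lowest after thinning to 1000 UMIs, with mean differences of 1.66 percentage points in rejecting and 3.28 in tolerized kidneys (exact two-sided permutation p = 0.33 for each, the smallest that 2 kidneys against 2 allow). Tolerized and rejecting kidneys differed by 1.62 points and overlapped (exact permutation p = 1.0). Thinned to 2000 UMIs, the shares were 5.41% and 3.42%, 6.55% and 8.09%, and 4.18% and 10.4%, and tolerized kidneys overlapped naive kidneys. With at most 20% mitochondrial UMIs, thinned to 1000 UMIs, late cells were 0 of 73 and 0 of 60 in naive kidneys, which allows shares of up to 4.11% and 5.0%. They were 4.49% and 0 of 34 cells (up to 8.82%) in rejecting grafts, and 2.92% and 13.9% in tolerized grafts, a mean difference from naive kidneys of 2.25 points with overlap in rejecting and 8.4 points in tolerized kidneys. With late cells defined by S100g at 1% or more of UMIs, the unthinned shares were 14.1% and 12.8%, 10.8% and 13.6%, and 14.5% and 11.8%, so the groups overlapped and the mean differences from naive kidneys were -1.3 and -0.33 points. Slc8a1 and Trpv5, which define late cells, were themselves called higher and lower in grafts, and their part in this share was not tested. How often a single UMI of either gene came from transcripts of other cells was not measured.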

How the data were processed

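The authors deposited 1 matrix per kidney with raw UMI counts per gene and barcode, made with Cell Ranger after alignment to mm10 and without normalization. The study removed doublets with DoubletDecon. Here doublets, called with Scrublet in scanpy 1.11.5, were left out only as an alternative. Genes were matched by Ensembl ID (28208 shared). Members and gene lists were chosen with earlier results of these data known. Counts of the chosen cells were summed per kidney, filtered with filterByExpr, scaled by TMM, and then compared by the quasi-likelihood test in edgeR 4.0.16 (R 4.3.3) on all 6 kidneys, with Benjamini-Hochberg adjustment. The 5 genes of the rule were not tested. SEs were taken as the log2 fold change divided by the root of F. Interactions and the split into late and other cells used the kidney as a block. In data simulated for rejecting against naive kidneys (10549 genes), the test recovered 82% of 200 genes changed 4-fold and 21.5% of those changed 2-fold.

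Named genes are members of the DCT identity, NCC and potassium, magnesium, and calcium lists, the 8 largest called changes in each direction per comparison with at least 50 CPM in a group and no overlap, the genes with the smallest FDR or highest level on other lists, and the 5 largest in each direction for interactions and late cells. Of these, the ones that carry each list are printed, and some genes are not reported here. Dnase1 and Angptl7 were picked from the largest changes after their values were seen. Alternatives were DESeq2 1.42.0, DESeq2 size factors, no filter, a replicate block, only the 2 groups compared, stricter limits on cells, thinned counts, and each kidney left out. The limit on proximal tubule markers, the split by S100g, and the split by leukocyte markers were added after the data were seen. Coordinates are those of GENCODE M21 (GRCm38).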

Additional observations from a re-analysis of the deposited data

Results flagged for a closer look

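Some genes changed differently in DCT cells and in a neighboring segment of the same kidneys, tested by an interaction term in edgeR, and each value below is the log2 change in DCT cells minus that in the other segment. Against the thick ascending limb, the values in rejecting kidneys were 5.43 for Aebp1, -3.12 for Upp1, -3.20 for Ptgds (prostaglandin D synthase), and 1.33 for Pth1r. In tolerized kidneys they were 4.48 for Aebp1, -2.29 for Upp1, -3.36 for Ptgds, 1.16 for Pth1r, -3.08 for Cryab (the small heat shock protein alpha-B crystallin), and -0.75 for Kl. Between tolerized and rejecting kidneys they were 1.03 for Klk1 and 1.95 for Klf2, an endothelial and immediate early transcription factor. Aebp1, Pth1r, and Klk1 kept their calls with each kidney left out. The calls for Ptgds and for Upp1 were lost without naive replicate 1 (FDR 0.278 and 0.144 under rejection, 0.339 and 0.583 in tolerized grafts), that for Ptgds in rejecting kidneys also without naive replicate 2 (0.0584), and that for Kl without naive replicate 1, naive replicate 2, or tolerized replicate 2 (0.0799, 0.479, and 0.0793).

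Against principal cells, the values in rejecting kidneys were -2.08 for Kl, -3.19 for Trpv5, -3.96 for Ltc4s, 5.60 for Lcn2, 2.71 for Gdf15, and 4.17 for Ptger3. In tolerized kidneys they were -2.09 for Kl, -2.12 for Trpv5, -3.98 for Ltc4s, 1.99 for Gdf15, 3.36 for Ptger3, and 2.45 for Prss23, a serine protease. Between tolerized and rejecting kidneys they were -2.61 for Lcn2 and -1.69 for Spp1 (osteopontin). The call of each was lost without naive replicate 2, although the values stayed in direction and near or above their size (in rejecting kidneys -1.80 for Kl, -3.23 for Trpv5, -3.66 for Ltc4s, 8.28 for Lcn2, 2.59 for Gdf15, and 4.41 for Ptger3). The FDRs were then 0.0766 to 0.205 in rejecting kidneys, 0.0545 to 0.418 in tolerized kidneys, and 0.066 between grafts. Without naive replicate 1, the calls of Trpv5, Gdf15, and Ptger3 were lost as well in both comparisons with naive kidneys (FDR 0.102, 0.134, and 0.536 under rejection, and 0.292, 0.349, and 0.535 in tolerized grafts), as were Lcn2 and Spp1 between grafts (0.0562 for each). Ptger3 in rejecting kidneys and Lcn2 between grafts were also lost without rejecting replicate 2 (0.328 and 0.089), and Ptger3 without rejecting replicate 1 (0.0823). Their cause was not tested.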

How the results depend on the processing

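The count of genes that differed between rejecting and naive kidneys was 1989, and 1252 by DESeq2 and 543 with at most 20% mitochondrial UMIs. Between tolerized and naive kidneys it was 1396, and 799 by DESeq2, 2120 with no filter, 346 with at most 20% mitochondrial UMIs, and 921 with summed counts thinned. Between tolerized and rejecting kidneys it was 0, and 27 by DESeq2, 378 with no filter, 6 with a replicate block, 2 with at least 1000 UMIs, and 2 with proximal tubule markers at most 1% of UMIs. Leaving out each kidney gave 632 to 1746, 365 to 1912, and 0 to 139 genes in these comparisons, lowest without a naive kidney. For the interaction with the thick ascending limb, no filter gave 343, 165, and 148 genes and DESeq2 gave 27 for tolerized against naive and 11 for tolerized against rejecting kidneys, and with kidneys left out the ranges were 12 to 333, 17 to 160, and 16 to 171. With principal cells, no filter gave 240, 248, and 140 and DESeq2 45 and 1, and the ranges were 0 to 164, 0 to 158, and 0 to 150. Late and other cells differed in 476 genes with thinned cells, 381 with the proximal tubule limit, and 608 to 785 with kidneys left out.

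The mean share of DCT cells was 8.58% in naive kidneys, and 2.68% with at most 20% mitochondrial UMIs, 7.73% with at least 3 UMIs of Slc12a3, 7.56% with a UMI of Pvalb, Calb1, or Trpm6 required, and 8.35% without doublets. In rejecting kidneys it was 2.48%, and 0.989% and 2.04% under the first and second of these. In tolerized kidneys it was 3.59%, and 1.86% under the first. Differences in the late share ranged from 1.33 to 2.00 (rejecting against naive), 1.20 to 5.37 (tolerized against naive), and -0.464 to 3.71 percentage points (tolerized against rejecting) with kidneys left out, and the last was -0.0408 with cells thinned to 2000 UMIs. The 20% mitochondrial limit turned 7 of 140 results for single genes, Bsnd to 0.00783, Vdr to 0.0452, and Cdh1 to 0.81 in rejecting kidneys and Cab39l to 0.00823, Vdr to 0.13, Trpm6 to 0.0287, and Cdh1 to 0.35 in tolerized kidneys, and 35 lost their call. The cause was not tested. With 2 kidneys per group, 58 and 63 of 199 results for single genes lost their call without naive replicate 1 or 2. By DESeq2, 16 of 196 lost their call and 8 gained one. With summed counts thinned, 10 of 150 lost it and 0 gained one. Without doublets, 4 of 148 lost it and 1 gained one. With at least 3 UMIs of Slc12a3, 3 of 150 lost it and 2 gained one.

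Deviations of kidneys that share a replicate number were nearly uncorrelated over genes (r = -0.0724, -0.0488, and 0.0882). This cannot exclude a shared deviation of single genes. In every group, Pvalb, Calb1, Trpm6, and Kl were higher in replicate 2 than in replicate 1, and Gdf15 was lower. The labels do not tie the numbers to the study's experiments, so the kidneys were not paired in the tests. With the replicate number as a block, Cab39l (from -0.88, FDR 0.0411, to -0.90, FDR 0.0502) and Egfr lost their calls and Calb1 gained one in rejecting kidneys, Bsnd and Slc8a1 lost theirs in tolerized kidneys, and Gdf15 was called between grafts, while 144 of 150 results for single genes were as before. Trpv5, Esrrb, Slc41a1, Cxcl9, and Top2a had too few counts to be tested with at most 20% mitochondrial UMIs.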
